A study of Homo sapiens with 8 samples.

Results

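The long arm of chromosome 20 (20q) was described in 2 prostate cancer cell lines, DU145 and PC3, through the protein-coding genes on it that the control cells express. The members were the rows of the deposited gene table that are listed as protein_coding on chromosome 20 with a listed start of at least 29000000 and a mean of at least 5 TPM over the control libraries of DU145 or of PC3. A few genes were left out by name, 6 of which reached that level. This gave 192 genes of the 57905 rows of the table, and of 325 protein-coding 20q rows left after the exclusions at any level. The level was reached in the controls of both lines by 167 members, in DU145 controls alone by 12 and in PC3 controls alone by 13. Just inside the threshold stood PHACTR3 at 5.15 TPM, SRMS at 5.30 TPM and AL160175.1 at 5.39 TPM, in the higher of the control means. Just outside it stood ZNF341 at 4.96 TPM, PARD6B at 4.95 TPM and FAM65C at 4.81 TPM. All 192 members passed the later filter on low values, because the rule already asks for a higher level.

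Both lines are established human lines, PC3 from a bone metastasis and DU145 from a brain metastasis of prostate cancer. The 8 libraries form 4 groups of 2: DU145 with a TRIB1 lentivirus, DU145 with an empty lentivirus (control), PC3 with the TRIB1 lentivirus and PC3 with the empty lentivirus (control). The labels give neither the promoter that drives TRIB1 nor whether the cells were a pool or a clone, and they do not say that replicates came from separate cultures or infections. The p-values therefore measure how far these libraries differ from each other, a spread that could be technical. TRIB1 encodes a pseudokinase that brings substrates to the ubiquitin ligase COP1.

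Extra copies of 20q are among the recurrent gains of carcinomas, and the arm carries genes that are studied for that reason: the mitotic kinase AURKA and its activator TPX2, the survival gene BCL2L1 (BCL-XL), the cell cycle factors E2F1 and MYBL2, the transcription factor ZNF217 and the kinases SRC and PTK6. A gene's transcript level generally follows its copy number in part, so neighbouring genes can differ together between cell lines. The copy number of 20q in these cells was not measured here, and the only property that the members share beyond the level is their place. Genes on one arm have otherwise unrelated roles.

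The table holds TPM, a transcript's share of a total that is fixed in every library, from which library depth cannot be read. TRIB1 itself stood at 69.4 and 62.3 TPM in DU145 TRIB1 libraries, against 10.1 and 7.94 TPM in DU145 controls, and at 241 and 245 TPM in PC3 TRIB1 libraries, against 45.1 and 50.8 TPM in PC3 controls. The epithelial markers KRT8, KRT18, EPCAM and CDH1 were present in all 8 libraries, the lowest value being 9.36 TPM for EPCAM. The luminal prostate marker KLK3 was near 0, at 0.187 TPM or less. Markers of leukocytes (PTPRC at most 0.467 TPM, CD3E at most 0.300 TPM) and endothelium (VWF at most 0.129 TPM) were also near 0. The second DU145 TRIB1 library stood apart: on the second principal component of the 2000 most variable genes, which held 10.3% of their variance, it lay at -61.7, against 23.2 in the other DU145 TRIB1 library and 21.5 and 24.9 in DU145 controls. The short RNAs RN7SL1 and RN7SL2 made up 3.17% of its TPM, against 1.27% to 2.24% in the other 7 libraries. Their share was also higher with TRIB1 within each line, at 1.93% and 3.17% in DU145 TRIB1 libraries, against 1.27% and 1.56% in DU145 controls, and at 2.03% and 2.24% in PC3 TRIB1 libraries, against 1.61% and 1.97% in PC3 controls. Mitochondrial transcripts took 6.50% and 6.72% of TPM in DU145 TRIB1 libraries, against 7.08% and 7.07% in DU145 controls, and 5.24% and 5.34% in PC3 TRIB1 libraries, against 7.21% and 5.40% in PC3 controls. Since TPM is a share, these groups bear on the level of every other gene, and their part in the results below was not tested. For DU145 the counts of falls and calls and the medians are also given without the library that stood apart.

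The promoters of members with the largest changes are shown first, so that their letters can be set beside the changes. 12 members passed the threshold of adjusted p below 0.05 with an absolute log2 change over 1 in either line ("called" below), and 5 of them have an entry among the RefSeq promoters (GRCh38.p14). For each, the 250 bases before a transcription start are printed 5′ to 3′ along the gene's strand. Where the table gives several starts, the one with the most matches was taken, and otherwise the first. Capitals mark matches, on either strand, to the core letters of an interferon-stimulated response element, GAAA, any pair of bases and GAAA again, or of a hypoxia response element, ACGTG. WFDC2, HELZ2 and TOX2 were called in DU145, and NPEPL1 and OPRL1 in PC3.
WFDC2 (chr20:45469503-45469752, plus strand): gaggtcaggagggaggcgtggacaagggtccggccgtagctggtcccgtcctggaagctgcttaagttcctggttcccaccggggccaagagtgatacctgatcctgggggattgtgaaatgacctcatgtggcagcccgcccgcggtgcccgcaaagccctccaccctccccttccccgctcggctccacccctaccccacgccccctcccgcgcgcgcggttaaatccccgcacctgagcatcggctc
HELZ2 (chr20:63574240-63574489, minus strand): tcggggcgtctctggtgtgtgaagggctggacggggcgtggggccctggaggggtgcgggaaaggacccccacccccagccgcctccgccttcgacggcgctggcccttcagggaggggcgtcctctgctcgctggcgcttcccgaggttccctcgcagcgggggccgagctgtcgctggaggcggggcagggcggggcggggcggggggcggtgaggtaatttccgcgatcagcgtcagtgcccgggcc
TOX2 (chr20:43945646-43945895, plus strand): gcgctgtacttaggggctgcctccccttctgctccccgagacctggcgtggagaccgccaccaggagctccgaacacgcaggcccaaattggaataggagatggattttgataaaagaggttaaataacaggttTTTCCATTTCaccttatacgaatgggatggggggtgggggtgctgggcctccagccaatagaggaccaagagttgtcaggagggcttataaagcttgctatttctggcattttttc
NPEPL1 (chr20:58692550-58692799, plus strand): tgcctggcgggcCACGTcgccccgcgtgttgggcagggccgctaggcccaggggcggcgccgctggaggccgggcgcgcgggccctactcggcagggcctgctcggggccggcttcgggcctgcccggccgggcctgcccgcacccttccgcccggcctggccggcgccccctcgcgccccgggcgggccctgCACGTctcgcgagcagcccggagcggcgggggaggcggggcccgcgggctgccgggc
OPRL1 (chr20:64092438-64092687, plus strand): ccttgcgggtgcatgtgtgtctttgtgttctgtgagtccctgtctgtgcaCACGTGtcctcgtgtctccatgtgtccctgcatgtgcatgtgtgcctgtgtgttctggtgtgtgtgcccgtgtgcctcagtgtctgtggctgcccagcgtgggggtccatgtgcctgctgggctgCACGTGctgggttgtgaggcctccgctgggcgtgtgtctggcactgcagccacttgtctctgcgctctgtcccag
The TOX2 window holds 1 match to the first motif, read on the opposite strand, and those of WFDC2 and HELZ2 hold no match to either motif. NPEPL1 has 2 matches to ACGTG, starting 238 and 57 bases before the start, and OPRL1 has 4, since each of its CACGTG runs matches on both strands. Of 35116 promoter windows of this length, 3.02% hold the first motif and 18.5% hold ACGTG. Of the 191 windows that belong to 144 of the members, 2 (1.05%) hold the first and 37 (19.4%) the second. The windows shown were taken for the most matches, while these percentages count every window, so the shown genes cannot be set against them. With 5 members shown, no difference between the lines can be read from the motifs. The 7 other called members have no entry here.

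In DU145 most 20q genes were lower with TRIB1, by small amounts. Their median log2 change was -0.325 (quartiles -0.462 and -0.175), and 178 of 192 (92.7%) lay below 0. Over all 25982 genes tested the median was -0.044 with 55.7% below 0, and over the 9522 protein-coding genes that meet the same level rule outside 20q it was -0.066 with 61.7% below 0. The control levels that chose the members also enter each change, and the genes outside 20q were chosen by the same level. By adjusted p below 0.05 (limma over all genes), 28 members fell (14.6%) and none rose, on a background over all genes tested of 2.01% lower and 0.712% higher. Outside 20q at the same level 3.5% fell. By chromosome or arm at that level, 19.8% fell on chromosome 21, 2.7% on 8q, 2.4% on 20p and 1.3% on 10p. By unadjusted p below 0.05, 118 members were lower, on a background of 12%, and 1 was higher, on a background of 5.72%.

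The summed TPM of the members was 11007 and 10158 in DU145 TRIB1 libraries, against 13178 in each DU145 control library. In shares of all TPM these are 1.101% and 1.016%, against 1.318% in both controls, so both TRIB1 libraries lay below both controls. Taken gene by gene, both TRIB1 libraries were below both controls for 154 members (80.2%), on a background of 29.7% of all genes tested, and above both for 6 (3.1%), on a background of 17.6%. Outside 20q at the same level, 39.4% were below in this way. Measured against the control mean, the median log2 difference over members was -0.284 in the first and -0.346 in the second DU145 TRIB1 library, against -0.045 and -0.089 for the genes outside 20q.

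**Figure D1:**
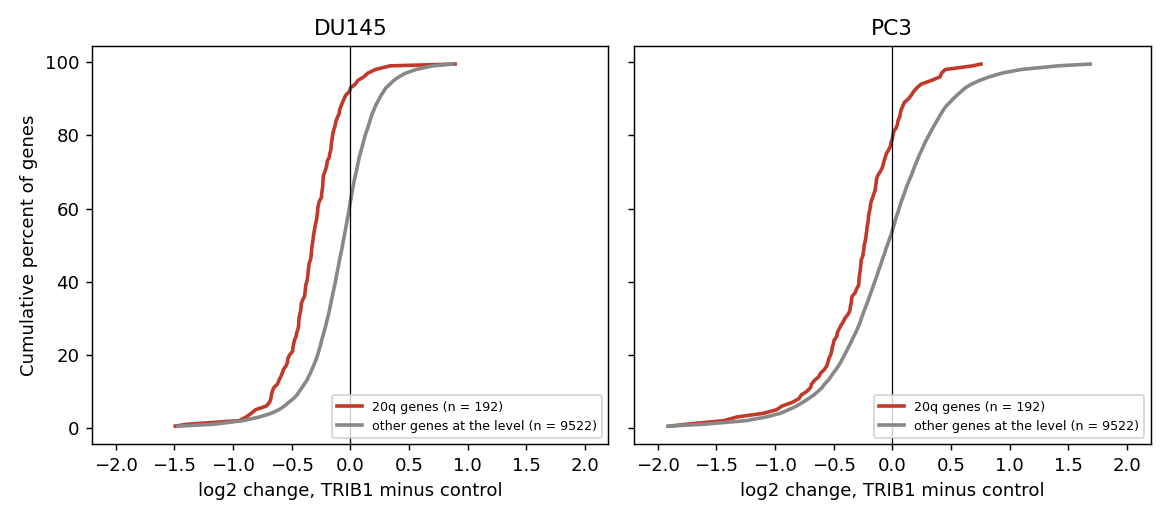
Cumulative percent of genes (y axis) by log2 change, TRIB1 minus control (x axis), in DU145 on the left and PC3 on the right, for the 192 genes of 20q (red) and the 9522 other genes at the same level (grey). The red curve lies left of the grey one in both lines, with medians of -0.325 against -0.066 in DU145 and -0.240 against -0.043 in PC3.

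The falls depended on which libraries were in the fit. Without the second DU145 TRIB1 library 8 members fell, 7 of them among the 28: ID1, TRPC4AP, SDC4, WFDC2, DNTTIP1, STX16 and DNAJC5. Fewer also fell without the first DU145 TRIB1 library (median over the members -0.346) or without the first or second DU145 control library (medians -0.333 and -0.313). Without the first DU145 control library the share of members that fell was no longer above that of all genes tested in the same fit. The PC3 TRIB1 libraries enter through the shared estimate of spread, and 6 fell without the first of them and 5 without the second. Without either PC3 control library 30 fell, of which 23 were among the 28. The 3 that fell without the first DU145 control were TRPC4AP, SDC4 and DNAJC5. The median over the members changed less, between -0.346 and -0.284 over these 8 fits.

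3 members (1.6%) were called in DU145, all lower, on a background of 1.12% called, 0.804% lower and 0.312% higher. The share called was thus near that of all genes. WFDC2, which encodes the secreted protein HE4, stood at 4.64 and 5.21 TPM in DU145 TRIB1 libraries, against 24.9 and 23.3 TPM in DU145 controls (log2 -2.08, SE 0.199, adjusted p = 0.0104). HELZ2, an interferon-induced helicase and coactivator of nuclear receptors, stood at 26.6 and 28.6 TPM, against 73.7 and 82.2 TPM in controls (log2 -1.46, SE 0.158, adjusted p = 0.0148). TOX2, a transcription factor with an HMG box, stood at 8.11 and 8.47 TPM, against 19.1 and 17.0 TPM in controls (log2 -1.03, SE 0.148, adjusted p = 0.0303). For each of the 3 the TRIB1 libraries lay close together and did not overlap the controls. WFDC2 and TOX2 reached the member level in DU145 controls alone, and those controls also enter the fall. Among the 167 members at the level in both lines 1 (0.6%) was called. WFDC2 lost its call without the first DU145 control library, where its adjusted p was 0.0534. With a pseudocount of 0.1 in place of 1 its adjusted p was 0.199. HELZ2 and TOX2 lost theirs without any 1 of the 4 DU145 libraries or of the PC3 TRIB1 libraries, with adjusted p up to 0.0796 and 0.120. The number called was 1 without either DU145 TRIB1 library, the second DU145 control or either PC3 TRIB1 library, and 0 without the first DU145 control. The listed interval of WFDC2 overlaps AL031663.1 on the opposite strand, which averaged 1.82 TPM in DU145 TRIB1 libraries and was listed at 0 in DU145 controls. In PC3 AL031663.1 averaged 26.4 TPM in TRIB1 libraries and 0.496 TPM in controls. It is not a member, because its control means are under 5 TPM. The strand setting of the counting is not given in the sources used here.

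In PC3 the members were also lower with TRIB1, with more genes past the test and more scatter. The median log2 change was -0.240 (quartiles -0.474 and -0.051) and 152 of 192 (79.2%) lay below 0, against a median of -0.008 over all genes tested and -0.043 outside 20q at the same level. 56 members fell (29.2%) on a background of 9.33%, and 5 rose (2.6%) on a background of 7.67%. Outside 20q at the same level 16.0% fell and 12.3% rose. By chromosome or arm at that level, 28.6% fell on chromosome 21, 26.6% on 10p, 21.4% on 20p and 5.9% on 8q. By unadjusted p below 0.05, 85 members were lower, on a background of 16.8%, and 12 were higher, on a background of 13.8%. The members summed to 10894 and 10684 TPM in PC3 TRIB1 libraries, against 13473 and 14358 TPM in PC3 controls, with no overlap. Both TRIB1 libraries were below both controls for 123 members (64.1%), on a background of 29.8%, and above both for 22 (11.5%), on a background of 24.5%. The number that fell was 27 without the first and 24 without the second PC3 TRIB1 library, 36 without either DU145 control library and 37 without the second PC3 control library. It was 48 or 51 without any other library, and the median stayed between -0.257 and -0.230. The number that rose was 2 without either DU145 control library or the first PC3 TRIB1 library, 3 without the second PC3 TRIB1 library and 4 to 6 without any other.

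9 members (4.7%) were called in PC3, all lower, on a background of 5.2% called, 2.67% lower and 2.52% higher, and 5.7% were called outside 20q at the same level. The share called was thus near that of all genes. The farthest was SLCO4A1, a transporter of organic anions including thyroid hormones, at 166 and 151 TPM in PC3 TRIB1 libraries, against 566 and 635 TPM in PC3 controls (log2 -1.92, SE 0.082, adjusted p = 0.000761). The row RP11-93B14.6, which GENCODE 29 types as an antisense transcript, overlaps SLCO4A1 on the opposite strand. It stood at 1.23 and 1.40 TPM, against 5.25 and 7.98 TPM in PC3 controls (log2 -1.70, adjusted p = 0.00963), and without a strand setting its reads cannot be told from those of SLCO4A1. In DU145 SLCO4A1 was far lower, at 35.1 and 32.8 TPM with TRIB1 and 47.0 and 45.7 TPM in controls (log2 -0.44, adjusted p = 0.0593).

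The other PC3 calls were of varied roles. NPEPL1, an aminopeptidase-like protein, stood at 25.5 and 25.8 TPM in PC3 TRIB1 libraries, against 58.0 and 80.2 TPM in PC3 controls (log2 -1.38, SE 0.152, adjusted p = 0.00456). SPAG4, a SUN-domain protein of the nuclear envelope, stood at 37.1 and 32.6 TPM, against 75.6 and 107 TPM in controls (log2 -1.35, adjusted p = 0.00558). CEP250, a linker of centrosomes, stood at 23.8 and 27.9 TPM, against 57.8 and 52.7 TPM in controls (log2 -1.07, adjusted p = 0.00798). In each the TRIB1 libraries lay below both controls, and the control libraries of NPEPL1 and SPAG4 were the more spread pair. KCNG1, a modifier subunit of voltage-gated potassium channels, stood at 23.8 and 22.2 TPM, against 44.9 and 60.6 TPM in controls (log2 -1.15, adjusted p = 0.00758). SOGA1 stood at 6.82 and 6.58 TPM, against 16.0 and 20.6 TPM in controls (log2 -1.32, adjusted p = 0.00378). OPRL1, the receptor of the peptide nociceptin, stood at 4.53 and 4.34 TPM, against 9.11 and 10.9 TPM in controls (log2 -1.01, adjusted p = 0.00901). These 3 likewise showed no overlap between groups. APCDD1L was low throughout, at 1.02 and 1.05 TPM with TRIB1 and 4.67 and 7.18 TPM in controls (log2 -1.74, adjusted p = 0.00855). Without the first PC3 TRIB1 library 6 were called, CEP250, RP11-93B14.6 and OPRL1 losing the call. Without the second, KCNG1 and OPRL1 lost theirs (adjusted p up to 0.0597). NPEPL1 shares its listed interval and strand with the read-through row STX16-NPEPL1, which averaged 3.02 TPM in PC3 TRIB1 libraries and 4.43 TPM in PC3 controls. APCDD1L, OPRL1 and RP11-93B14.6 reached the member level in PC3 controls alone, and those controls also enter the fall. In the fit of all 8 libraries, 6 (3.6%) of the 167 members at the level in both lines were called in PC3.

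**Figure D2:**
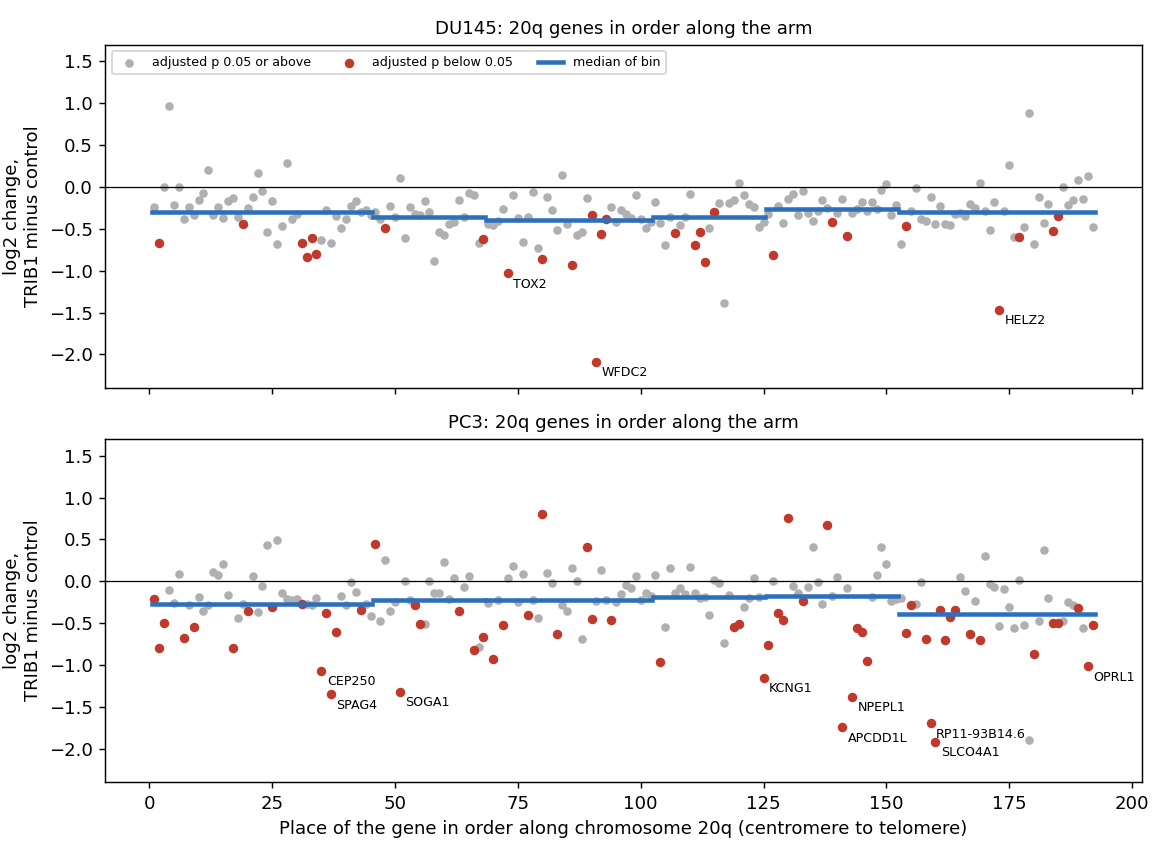
The log2 change, TRIB1 minus control (y axis), of each of the 192 genes in order along 20q from centromere to telomere (x axis), for DU145 above and PC3 below. Red points have an adjusted p below 0.05, blue lines are the medians of 6 stretches of the arm and called genes are named; all 6 medians lie below 0 in both lines, between -0.399 and -0.268 in DU145 and between -0.385 and -0.179 in PC3.

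The shift ran along the whole arm. Ordered by listed start, the members were split into 6 stretches of 23 to 45 genes. From centromere to telomere, the median log2 changes in DU145 were -0.298 (HM13 to DLGAP4, 40 of 45 genes below 0), -0.359 (MYL9 to LPIN3, 22 of 23), -0.399 (CHD6 to ELMO2, 33 of 34), -0.362 (TP53RK to KCNG1, 22 of 23), -0.268 (ATP9A to PPP1R3D, 26 of 27) and -0.299 (TAF4 to PCMTD2, 35 of 40). In PC3 they were -0.268, -0.225, -0.218, -0.187, -0.179 and -0.385 in the same order. Without the second DU145 TRIB1 library the DU145 medians were -0.229, -0.343, -0.379, -0.298, -0.197 and -0.278. The most telomeric stretch had the lowest median in PC3, with 17 of its 40 genes falling and none rising. The short arm of the same chromosome gave 84 genes at the same level rule. Their median was -0.111 in DU145 (73.8% below 0) and -0.246 in PC3 (72.6% below 0).

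Set among all chromosomes at the same level rule, with chromosome 20 alone split by arm, 20q had the second-lowest median of 24 chromosomes or arms in both lines. In DU145 only chromosome 21 was lower, at -0.402 over 91 genes, and chromosome 7 came next above 20q, at -0.163. Without the second DU145 TRIB1 library the order was the same, at -0.390 for chromosome 21, -0.284 for 20q and -0.134 for chromosome 7. In PC3 only 20p was lower, at -0.246, and chromosome 21 and chromosome 7 came next above, at -0.237 and -0.214. The gap to the next chromosome was thus wide in DU145 and narrow in PC3. An arm taken alone can differ from its whole chromosome, so this is not a rank among arms. The median on 10p was -0.235 in PC3 and 0.158 in DU145 over 79 genes, against 0.040 and 0.041 on all of chromosome 10. TRIB1 lies on 8q, where the median was -0.089 in DU145 and 0.148 in PC3 over 222 genes.

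**Figure D3:**
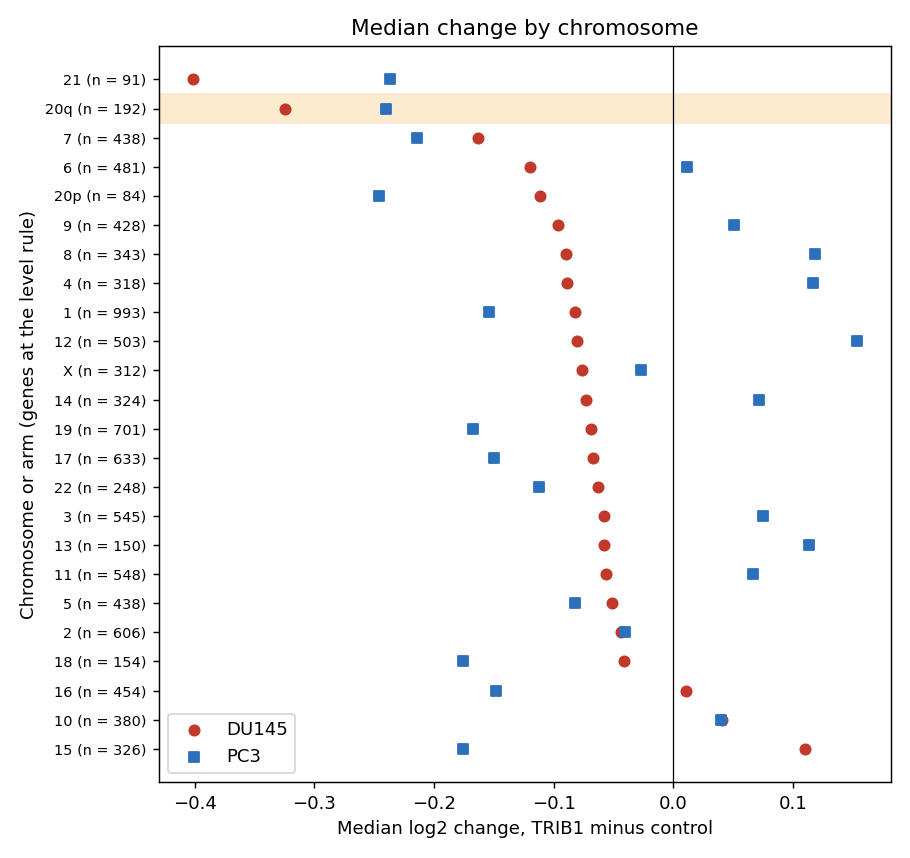
Median log2 change, TRIB1 minus control (x axis), of the protein-coding genes at the level rule on each chromosome, with chromosome 20 split by arm (y axis, n in brackets, ordered by DU145); red circles are DU145 and blue squares PC3. The shaded row is 20q, at -0.325 in DU145 and -0.240 in PC3; chromosome 21 stands at -0.402 and -0.237.

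Falls were found in every role list in DU145, and in all but the interferon-related list in PC3. The counts below are to be read against the shares that fell among all 192 members, 14.6% in DU145 and 29.2% in PC3, and among all genes tested, 2.01% and 9.33%. Differences between the lists were not tested, and the lists hold from 4 to 34 members. Without the second DU145 TRIB1 library the list medians in DU145 ran from -0.664 (interferon-related genes) to -0.180. Members chosen for mitosis and DNA replication numbered 16: 2 fell in DU145 (12.5%) and 4 in PC3 (25%), none rose, and their medians were -0.320 and -0.242, all near the values of the members as a whole. In DU145 the 2 were UBE2C, the ubiquitin-conjugating enzyme of the anaphase-promoting complex, and CHMP4B, an ESCRT-III subunit. UBE2C stood at 207 and 203 TPM in DU145 TRIB1 libraries, against 261 and 276 TPM in DU145 controls (log2 -0.39, SE 0.064, adjusted p = 0.0439). In PC3, UBE2C stood at 187 and 196 TPM, against 234 and 212 TPM in controls (log2 -0.22, adjusted p = 0.0718). AURKA, the Aurora A kinase, had close values in DU145, at 93.3 and 88.9 TPM with TRIB1 and 95.5 and 93.6 TPM in controls (log2 -0.05, adjusted p = 0.679). In PC3 it stood at 47.8 and 49.3 TPM, against 56.9 and 57.8 TPM in controls (log2 -0.24, SE 0.054, adjusted p = 0.0355). The difference of these 2 changes was not past the test (0.18 log2, adjusted p = 0.203). TPX2, which activates Aurora A at the spindle, did not pass in either line (log2 -0.22, adjusted p = 0.254 in DU145; log2 -0.26, adjusted p = 0.0942 in PC3). MYBL2, a transcription factor of the G2 phase, stood at 54.9 and 53.9 TPM in PC3 TRIB1 libraries, against 76.4 and 80.3 TPM in PC3 controls (log2 -0.52, adjusted p = 0.0177). E2F1, which drives genes of DNA synthesis, had a log2 change of -0.36 in DU145 and -0.44 in PC3 (adjusted p = 0.243 and 0.0777).

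Transcription factors and chromatin proteins gave 34 members, of which 4 fell in DU145 and 10 in PC3, with medians of -0.366 and -0.345 and none rising. ID1, an inhibitor of helix-loop-helix factors, was one of 7 members that fell in both lines. It stood at 202 and 167 TPM in DU145 TRIB1 libraries, against 305 and 282 TPM in DU145 controls (log2 -0.67, SE 0.096, adjusted p = 0.0303), and at 415 and 424 TPM in PC3 TRIB1 libraries, against 747 and 707 TPM in PC3 controls (log2 -0.79, SE 0.096, adjusted p = 0.00580). No library of either TRIB1 group reached its controls. ZNF217, a zinc finger repressor, fell in PC3, at 26.5 and 23.9 TPM against 33.9 and 36.5 TPM in controls (log2 -0.47, adjusted p = 0.0134). The DU145 values were 33.0 and 32.5 TPM with TRIB1, against 44.9 and 44.0 TPM in controls, and missed the threshold (log2 -0.43, adjusted p = 0.0530). SALL4, a factor of pluripotent cells, stood at 14.6 and 17.2 TPM in DU145 TRIB1 libraries, against 30.7 and 26.7 TPM in DU145 controls (log2 -0.81, adjusted p = 0.0369). NCOA3, a coactivator of nuclear receptors, and SNAI1, a repressor of epithelial genes, passed in neither line (log2 -0.36 and -0.20 in DU145, 0.16 and -0.02 in PC3).

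Among 18 kinases, phosphatases, G proteins and adaptors, 3 fell in DU145, and 4 fell and 1 rose in PC3. GNAS, the stimulatory G protein alpha subunit and the member with the highest level, fell in PC3, at 574 and 544 TPM against 799 and 849 TPM in controls (log2 -0.56, SE 0.074, adjusted p = 0.00734). In DU145 GNAS stood at 831 and 728 TPM, against 935 and 927 TPM in controls (log2 -0.26, adjusted p = 0.154). PLCG1, phospholipase C gamma, stood at 44.0 and 42.7 TPM in PC3 TRIB1 libraries, against 80.5 and 74.8 TPM in PC3 controls (log2 -0.83, adjusted p = 0.00421). PTPN1, the phosphatase PTP1B, fell in PC3, at 19.9 and 19.3 TPM against 29.1 and 27.6 TPM in controls (log2 -0.51, adjusted p = 0.00555). In DU145 its values were close, at 57.0 and 56.3 TPM with TRIB1 and 54.2 and 55.3 TPM in controls (log2 0.05, adjusted p = 0.759). The 1 that rose was PMEPA1, an inhibitor of TGF-beta signalling, at 123 and 126 TPM in PC3 TRIB1 libraries, against 69.9 and 85.8 TPM in PC3 controls (log2 0.68, SE 0.149, adjusted p = 0.0319).

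Of 9 survival genes, 1 fell in DU145 (11.1%) and 3 in PC3 (33.3%), shares near those of all members. BCL2L1, which encodes BCL-XL, stood at 135 and 128 TPM in PC3 TRIB1 libraries, against 187 and 185 TPM in PC3 controls (log2 -0.50, SE 0.054, adjusted p = 0.00430). In DU145 the values overlapped, at 82.9 and 80.4 TPM with TRIB1 and 79.3 and 83.5 TPM in controls (log2 0.00, adjusted p = 1.00). DNAJC5, a cochaperone of vesicles, fell in both lines: 40.4 and 38.8 TPM against 58.9 and 56.3 TPM in DU145 controls (log2 -0.53, adjusted p = 0.0158), and 63.6 and 62.0 TPM against 87.2 and 90.9 TPM in PC3 controls (log2 -0.50, adjusted p = 0.00540).

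The list of proteasome and ubiquitin genes had 10 members, of which 4 fell in DU145 and 2 in PC3. TRPC4AP, an adaptor of ubiquitin ligases, stood at 33.8 and 32.3 TPM in DU145 TRIB1 libraries, against 52.9 and 53.1 TPM in DU145 controls (log2 -0.67, adjusted p = 0.00697). In PC3 its fall was smaller, at 44.4 and 43.6 TPM against 52.9 and 53.6 TPM in controls (log2 -0.27, adjusted p = 0.0270), and the difference of the changes passed the test (log2 -0.40, adjusted p = 0.0370, up to 0.0759 with 1 library left out). EDEM2, which acts in the removal of misfolded glycoproteins, stood at 30.6 TPM in both DU145 TRIB1 libraries, against 58.8 and 52.2 TPM in DU145 controls (log2 -0.84, adjusted p = 0.0158). PSMA7, an alpha subunit of the proteasome, fell in PC3, at 569 and 573 TPM against 670 and 722 TPM in controls (log2 -0.28, adjusted p = 0.0251). In DU145 the log2 difference was nearly the same, at 435 and 403 TPM against 512 and 510 TPM in controls, without passing (log2 -0.29, adjusted p = 0.0690).

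Genes of the lysosome, endoplasmic reticulum and secretory pathway numbered 20, of which 5 fell in DU145 (25%) and 11 in PC3 (55%). CTSZ, a lysosomal cysteine protease, stood at 237 and 246 TPM in PC3 TRIB1 libraries, against 383 and 569 TPM in PC3 controls (log2 -0.95, SE 0.190, adjusted p = 0.0240). Its controls differed widely from each other, and neither reached the TRIB1 values. TM9SF4, a transmembrane protein of the secretory pathway, stood at 36.9 and 37.2 TPM, against 59.0 and 60.3 TPM in PC3 controls (log2 -0.67, adjusted p = 0.00405). STX16, a SNARE of the trans-Golgi network, fell in DU145, at 48.0 and 52.4 TPM against 74.0 and 77.6 TPM in controls (log2 -0.59, adjusted p = 0.0195), and did not pass in PC3, at 43.5 and 40.8 TPM against 44.0 and 44.9 TPM in controls (log2 -0.08, adjusted p = 0.544). Of 19 genes of RNA processing and translation, 1 fell in DU145 and 6 in PC3. Among them EEF1A2, a translation elongation factor, had 342 and 344 TPM in PC3 TRIB1 libraries, against 480 and 648 TPM in PC3 controls (log2 -0.70, adjusted p = 0.0240). Of 16 genes of mitochondria and metabolism, 2 fell in DU145, and 4 fell and 1 rose in PC3. AHCY, which hydrolyses adenosylhomocysteine, and ROMO1, a mitochondrial membrane protein, passed in neither line (log2 -0.05 and -0.23 in DU145, -0.05 and -0.01 in PC3). CYP24A1, the enzyme that inactivates vitamin D, was the 1 that rose, at 3.87 and 3.22 TPM in PC3 TRIB1 libraries, against 1.36 and 2.07 TPM in PC3 controls (log2 0.75, adjusted p = 0.0232).

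The 12 genes of the cell surface, matrix and secreted proteins had a median of -0.429 in DU145, with 4 falling. In PC3 the median was -0.262, with 4 falling and 1 rising. SDC4, the heparan sulfate proteoglycan syndecan 4, had the smallest adjusted p of all members in DU145 in the fit of all 8 libraries. With only the DU145 libraries fitted it did not pass (adjusted p = 0.0593). Its levels were 106 and 96.6 TPM in DU145 TRIB1 libraries, against 199 and 188 TPM in DU145 controls (log2 -0.93, SE 0.070, adjusted p = 0.00534), and kept an adjusted p below 0.05 without each library in turn. In PC3 the TRIB1 libraries were the higher ones, at 117 and 108 TPM against 102 and 99.2 TPM in controls, a change that did not pass (log2 0.15, adjusted p = 0.207). PROCR, the endothelial protein C receptor, stood at 63.2 and 59.9 TPM in DU145 TRIB1 libraries, against 95.6 and 93.1 TPM in DU145 controls (log2 -0.61, adjusted p = 0.0315). MMP24, a membrane-type metalloproteinase, stood at 19.3 and 20.4 TPM, against 35.1 and 35.6 TPM in DU145 controls (log2 -0.81, adjusted p = 0.0249). Its antisense neighbour MMP24-AS1 was also lower, with means of 126 and 183 TPM in DU145 TRIB1 and control libraries, and the 2 cannot be told apart without strand. MYL9, a regulatory light chain of myosin, was the member that rose in PC3, at 18.4 and 16.8 TPM against 12.2 and 13.2 TPM in controls (log2 0.44, adjusted p = 0.0319).

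The small list of interferon-related genes had 4 members, of which 2 fell in DU145 and none in PC3 (medians -0.655 and -0.142). Besides HELZ2, ZNFX1, an interferon-stimulated helicase, stood at 17.7 and 19.1 TPM in DU145 TRIB1 libraries, against 29.7 and 31.1 TPM in DU145 controls (log2 -0.70, adjusted p = 0.0271). SAMHD1, which degrades deoxynucleotides, stood at 11.9 and 11.3 TPM, against 19.0 and 17.7 TPM in DU145 controls, and missed the threshold (log2 -0.61, adjusted p = 0.0751). CD40, a receptor of the TNF family, had a log2 change of -0.49 in DU145 (adjusted p = 0.172). In PC3 HELZ2 stood at 35.7 and 34.4 TPM, against 43.2 and 60.4 TPM in controls (log2 -0.53, adjusted p = 0.0737). All 4 were thus below 0 in DU145, and 3 of 4 in PC3.

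Of 27 members reported as gained in carcinomas, 1 fell in DU145, which was UBE2C, and in PC3 9 fell and 1, CYP24A1, rose. The medians were -0.236 in DU145, against -0.325 over all members, and -0.258 in PC3, against -0.240. The shares that fell were 3.7% in DU145, against 14.6% of all members, and 33.3% in PC3, against 29.2%. The smaller shift of this list in DU145 was not tested. 46 members stood in none of the lists, with 5 falling in DU145, and 12 falling and 2 rising in PC3. The 2 were KCNK15 and DBNDD2, the second at 34.2 and 35.6 TPM in PC3 TRIB1 libraries, against 26.4 and 25.8 TPM in PC3 controls (log2 0.41, adjusted p = 0.0133).

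Single libraries decided many of these calls. In DU145 the falls of UBE2C, CHMP4B, PROCR, ZNFX1, PIGT and UCKL1 missed the threshold without any 1 of the DU145 libraries or of the PC3 TRIB1 libraries, with adjusted p up to 0.186. That of ID1 passed without either DU145 TRIB1 library and missed without any 1 of the other 6 (up to 0.152), and that of SALL4 missed without each of the 8 (0.0586 to 0.154). MMP24 missed without any 1 DU145 library or the second PC3 TRIB1 library (up to 0.109), EDEM2 without either DU145 TRIB1 library or the first DU145 control (up to 0.0595), and STX16 and DNTTIP1 without a PC3 TRIB1 library or the first DU145 control, STX16 also without the second DU145 control (up to 0.0730 and 0.0712). LPIN3 missed without any library but the first DU145 TRIB1 library (up to 0.167), and LSM14B without the second DU145 TRIB1 library, a DU145 control or a PC3 TRIB1 library (up to 0.0994). SDC4, TRPC4AP and DNAJC5 passed without each library in turn. With only the DU145 libraries fitted they did not pass, and the 2 members that fell were WFDC2 and HELZ2. With the replicate number as a block, SDC4 and TRPC4AP passed and DNAJC5 did not.

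In PC3 the changes of AURKA and PSMA7 missed the threshold without either DU145 control, either PC3 TRIB1 library or the second PC3 control (adjusted p up to 0.106 and 0.119). MYBL2 missed without any 1 of the PC3 libraries (up to 0.0962). PMEPA1 and MYL9 missed without any 1 of the PC3 libraries or DU145 controls (up to 0.148 and 0.153), and EEF1A2 and CYP24A1 without any 1 of the DU145 libraries or PC3 TRIB1 libraries (up to 0.125 and 0.120). CTSZ missed without the first DU145 TRIB1 library, a DU145 control or a PC3 TRIB1 library (up to 0.130), and TRPC4AP without either PC3 TRIB1 library or the second PC3 control (up to 0.0791). GNAS, ZNF217, DBNDD2 and LPIN3 missed without the second PC3 TRIB1 library alone (0.0600, 0.0505, 0.0591 and 0.0565). SLCO4A1, ID1, BCL2L1, PTPN1, PLCG1, TM9SF4, DNAJC5, KCNK15, NPEPL1, SPAG4, SOGA1, LSM14B, PIGT and UCKL1 passed without each library in turn.

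**Figure D4:**
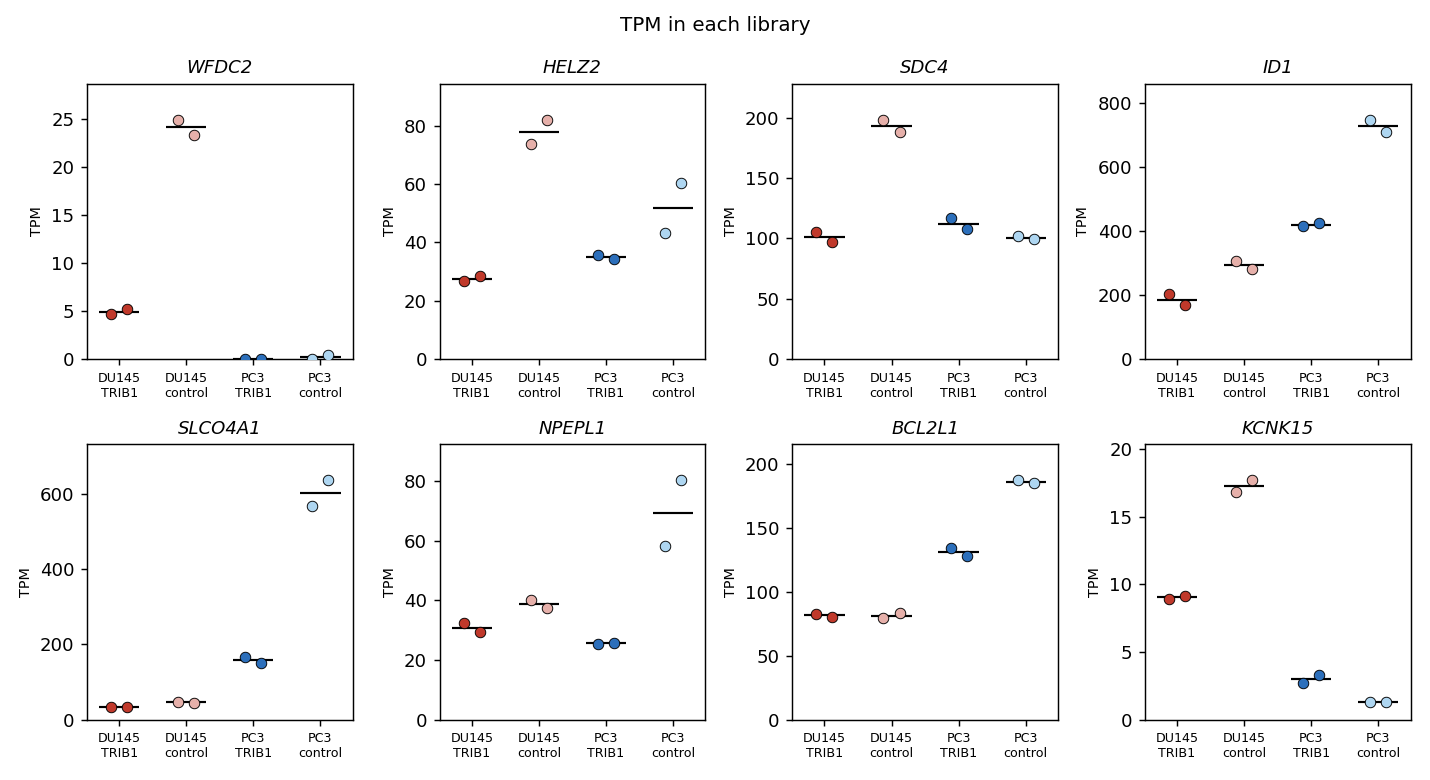
TPM (y axis, from 0) of 8 members in each library, 1 point per library and a bar at the mean of 2, for DU145 TRIB1, DU145 control, PC3 TRIB1 and PC3 control from left to right. WFDC2 and SDC4 differ between TRIB1 and control libraries in DU145, SLCO4A1, NPEPL1 and BCL2L1 in PC3, and ID1 in both lines; KCNK15 is lower with TRIB1 in DU145 and higher in PC3.

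The response to TRIB1 differed between the lines for some members. Tested directly, the DU145 change less the PC3 change was higher for 9 members (4.7%, background 4.01%) and lower for 18 (9.4%, background 5.36%), and 11 were called (5.7%, background 5.12%), 6 of them higher (background 2.11%) and 5 lower (background 3.01%). The shares called were near those of all genes. Outside 20q at the same level 7.0% were higher, 8.9% lower and 7.1% called. Of the 167 members at the level in both lines, 4 (2.4%) were called. The remaining members reached the level in the controls of 1 line alone, and those controls also enter that line's change. Some of them are near 0 in the other line, where a fall could hardly be seen. The number called was 3 to 5 without any 1 of the DU145 libraries or of the PC3 TRIB1 libraries, 11 without the first PC3 control library and 9 without the second. Of the 28 members that fell in DU145, 7 (25%) fell in PC3 as well, which is 12.5% of the 56 that fell in PC3. These were ID1, TRPC4AP, LPIN3, PIGT, LSM14B, DNAJC5 and UCKL1. KCNK15, a potassium channel of the tandem pore family, was the 1 member that passed in opposite directions. It stood at 8.95 and 9.13 TPM in DU145 TRIB1 libraries, against 16.8 and 17.7 TPM in DU145 controls (log2 -0.86, adjusted p = 0.0291). In PC3 it stood at 2.75 and 3.29 TPM with TRIB1, against 1.32 and 1.28 TPM in controls (log2 0.80, adjusted p = 0.0102). The difference of the changes was -1.66 log2 (adjusted p = 0.00702). KCNK15 is a member through DU145 controls alone, and its mean in PC3 controls was 1.30 TPM. The groups did not overlap in either line. The fall in DU145 missed the threshold without any 1 of the DU145 or PC3 TRIB1 libraries (adjusted p up to 0.117).

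SLCO4A1 had the smallest adjusted p for this difference (1.48 log2, adjusted p = 0.00383), followed by SDC4 (-1.08 log2, adjusted p = 0.00545). These and KCNK15 kept it below 0.05 without each library in turn. BCL2L1 and DNTTIP1, a subunit of a histone deacetylase complex, kept it as well (0.51 and -0.70 log2, adjusted p = 0.0179 and 0.0121). DNTTIP1 stood at 39.2 and 36.5 TPM in DU145 TRIB1 libraries, against 57.9 and 54.9 TPM in DU145 controls (log2 -0.56, adjusted p = 0.0175). In PC3 it stood at 183 and 177 TPM, against 158 and 168 TPM in controls (log2 0.14, adjusted p = 0.217).

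Differences between the lines ran in both directions along the arm. The control levels chose the members, so the difference in controls is a description: the median of PC3 minus DU145 was 0.005 log2 over the members and -0.178 over all genes tested. The TRIB1 libraries were not used by the rule. In them the median of PC3 minus DU145 was 0.105 over the members (quartiles -0.372 and 0.408), against -0.162 over all genes tested and -0.115 outside 20q at the same level. 59 members (30.7%) were higher in PC3 and 50 (26.0%) lower by adjusted p, on a background of 20.8% and 29%, and 36 (18.8%) were called, on a background of 28.1%. Outside 20q at the same level 30.4% were higher in PC3, 38.9% lower and 32.9% called, so the share higher was near that of other genes at this level. Of the 167 members that reached the level in both lines, 20 (12%) were called. The other 25 had to differ in the controls, so for those named below the values in the TRIB1 libraries are given as a description, with no p. On 20p the median was 0.565 in the TRIB1 libraries, with 55 of 84 genes higher in PC3.

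The largest differences between the lines were of single genes. MYL9 stood at 18.4 and 16.8 TPM in PC3 TRIB1 libraries, against 680 and 572 TPM in DU145 TRIB1 libraries (log2 -5.07, SE 0.098, adjusted p = 2.30e-06). The lines were far apart with no overlap. Members that reached the level in DU145 controls alone were lower in PC3 by the way they were chosen. Of these, CYP24A1 stood at 3.87 and 3.22 TPM in PC3, against 118 and 106 TPM in DU145 (log2 -4.64), and WISP2, a secreted protein of the CCN family, at 0.0828 and 0.237 TPM in PC3, against 28.7 and 22.5 TPM in DU145 (log2 -4.51). RIMS4 (log2 -3.62), MAP1LC3A (-3.23), MMP24 (-3.04) and TOX2 (-2.97) belong to the same kind, each under 2 TPM in both PC3 TRIB1 libraries.

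In the other direction, PLTP, the phospholipid transfer protein, stood at 46.3 and 45.8 TPM in PC3 TRIB1 libraries, against 2.94 and 2.05 TPM in DU145 TRIB1 libraries (log2 3.76). It reached the level in PC3 controls alone, so this direction follows from the choice of members. Its listed interval overlaps CTSA on the opposite strand, which averaged 174 TPM in PC3 and 137 TPM in DU145 TRIB1 libraries. VSTM2L stood at 76.8 and 81.5 TPM, against 10.1 and 8.91 TPM in DU145 (log2 2.94, adjusted p = 0.000157). PTK6, a non-receptor tyrosine kinase of epithelial cells, stood at 26.8 and 25.5 TPM, against 5.58 and 4.80 TPM in DU145 (log2 2.14, adjusted p = 4.93e-05). Its neighbour and relative SRMS went the same way, at 4.41 and 5.58 TPM in PC3 and 1.101 and 0.824 TPM in DU145 (log2 1.61), and was likewise a member through PC3 controls alone. Other neighbours differed. DNTTIP1 was higher in PC3 (log2 2.22, adjusted p = 6.80e-06), while UBE2C, the next member along the arm, did not pass (log2 -0.10, adjusted p = 0.251). SLCO4A1 (2.19), PMEPA1 (2.16) and DYNLRB1 (1.43), a dynein light chain, complete the largest differences on this side, in log2.

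**Figure D5:**
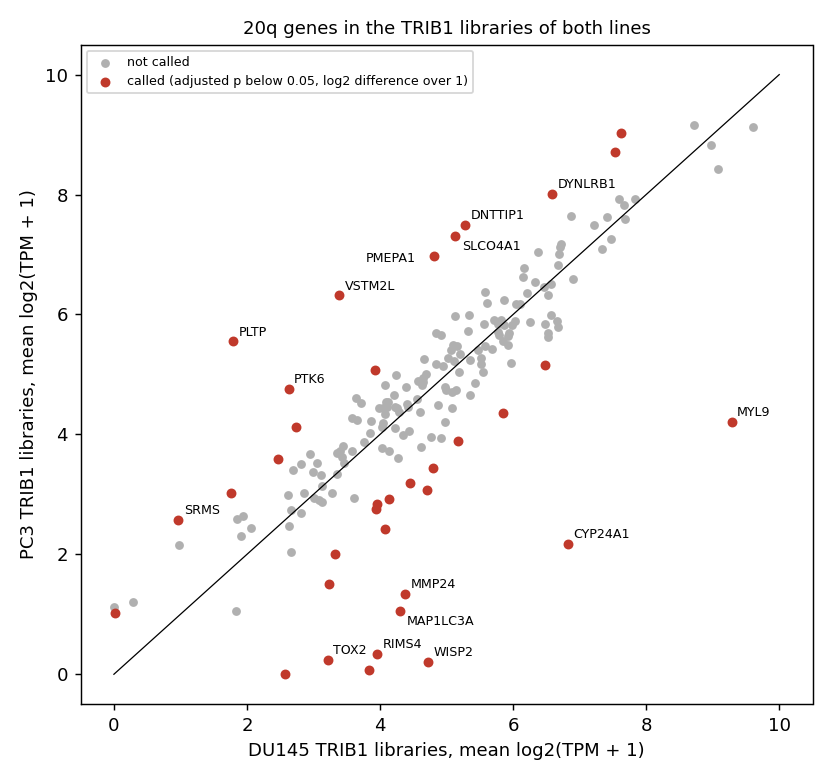
Mean log2(TPM + 1) of the 192 genes in the TRIB1 libraries of PC3 (y axis) and of DU145 (x axis), n = 2 each, with the line of equal levels. Red points are the 36 called genes; some of the largest differences are named, MYL9 and CYP24A1 far below the line and PLTP and VSTM2L above it.

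Some well-known 20q genes are not members because the table lists another transcript type for them. By GENCODE 29 types, 217 rows of the arm are protein-coding at the same level, 28 of them with another listed type. With that membership the medians were -0.323 in DU145 and -0.250 in PC3, with 34 and 67 genes falling. Among the added rows, TGM2, a transglutaminase, stood at 88.3 and 90.5 TPM in DU145 TRIB1 libraries, against 215 and 216 TPM in DU145 controls (log2 -1.26, adjusted p = 0.00441). SRC, the tyrosine kinase, stood at 36.5 and 31.97 TPM in PC3 TRIB1 libraries, against 79.6 and 84.1 TPM in PC3 controls (log2 -1.24, adjusted p = 0.00208). SULF2, a sulfatase of heparan sulfate, stood at 118 and 130 TPM, against 274 and 316 TPM in PC3 controls (log2 -1.24, adjusted p = 0.00792), and was under 2 TPM in every DU145 library. CTSA, a lysosomal protease, fell in both lines (log2 -0.78, adjusted p = 0.0136 in DU145; log2 -0.36, adjusted p = 0.0333 in PC3). In DU145 TGM2 and CTSA, and in PC3 all 3 of SRC, SULF2 and CTSA, showed no overlap between TRIB1 and control libraries.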

How the data were processed

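Per the labels' protocols, DU145 and PC3 cells received a TRIB1 lentivirus or an empty one, RNA was taken with TRIzol and an NEB Ultra kit gave the libraries. The build hg38 and the tools edgeR, DESeq, HTSeq and TopHat2 (2.0.14) stand in the submitters' processing notes. The sources used here do not give which tool made the values, nor the annotation, strand setting and gene lengths. The deposited table holds TPM, and each column sums to 1000000, so library depth is unknown, no counting interval was computed, and a gene group that takes more of the RNA lowers all others. Of 52338 identifiers shared with GENCODE 29, 365 have the listed start, so the build of the listed intervals is not stated and none was converted.

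Samples were grouped by title. The 25982 genes that averaged 1 TPM or more in some group were fitted with limma 3.58.1 (R 4.3.3, mean-variance trend) on log2(TPM + 1), all 8 libraries in 1 fit of 4 group means (4 residual degrees of freedom, prior 1.89), with Benjamini-Hochberg adjustment over all genes. Log2 changes are on this scale and understate those of low genes. "Rose" and "fell" mean an adjusted p below 0.05, and "called" adds an absolute log2 change over 1, the cutoff in the series' design. The procedure was tested on simulated data. The alternatives were other pseudocounts, filters, scalings, libraries, levels and member rules. Whether replicate numbers pair the samples is not stated in the labels, and the main fit used no pairing.

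The members, gene lists and the rule for named genes were chosen with earlier results of these data known. That rule takes per line the 8 largest called changes per direction, the 8 called differences of the changes with the smallest p, the 8 largest differences per direction between the lines' TRIB1 libraries, the 5 highest levels and a set of well-known 20q genes. CHMP4B, SALL4, PLCG1, DNAJC5, TRPC4AP, EDEM2, TM9SF4, STX16, ZNFX1, DBNDD2 and WFDC3, and the members past the test in both lines, were named after their values were seen. MMP9, on the list of well-known genes, was not a member. Some items that the rule takes are not reported here. Symbols are as listed, with 190 members matched to a current symbol. Promoters are RefSeq sequences (GRCh38.p14).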

Additional observations from a re-analysis of the deposited data

Results flagged for a closer look

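16 of the named genes were picked out because their change with TRIB1 differed between the lines in the test of that difference (limma, DU145 minus PC3, log2, adjusted p below 0.05). In 8 of them the difference was below 0: WFDC2 (-1.84), KCNK15 (-1.66), MAP1LC3A (-1.17), SDC4 (-1.08), TOX2 (-1.07), TFAP2C (-0.81), MYL9 (-0.74) and DNTTIP1 (-0.70). WFDC2 and TOX2 stood at 0.395 TPM or less in every PC3 library. Like KCNK15 and MAP1LC3A, they reached the member level in DU145 controls alone. In MAP1LC3A, which encodes an autophagosome protein, the levels were 20.2 and 17.2 TPM in DU145 TRIB1 libraries, against 33.1 and 27.9 TPM in DU145 controls, and 1.04 and 1.14 TPM in PC3 TRIB1 libraries, against 0.556 and 0.428 TPM in PC3 controls. TFAP2C, a transcription factor of the AP-2 family, stood at 14.27 and 14.04 TPM in DU145 TRIB1 libraries, against 19.97 and 18.1 TPM in DU145 controls, and at 36.0 and 29.5 TPM in PC3 TRIB1 libraries, against 24.0 and 24.5 TPM in PC3 controls. Neither gene passed the test within a line.

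In the others the difference was above 0: APCDD1L (1.60), RP11-93B14.6 (1.58), SLCO4A1 (1.48), SOGA1 (1.43), OPRL1 (1.14), NPEPL1 (1.06), PTPN1 (0.56) and BCL2L1 (0.51). All 8 fell in PC3 and did not pass in DU145. APCDD1L and RP11-93B14.6 stood at 0.486 TPM or less in every DU145 library. Like OPRL1, they reached the member level in PC3 controls alone. The differences of SLCO4A1, SDC4, KCNK15, BCL2L1 and DNTTIP1 passed without each library in turn. Those of TOX2 passed in none of the 8 fits with 1 library left out, and those of APCDD1L, RP11-93B14.6, OPRL1 and TFAP2C in 1 of 8 (adjusted p up to 0.122). The difference of WFDC2 missed the threshold in 5 of 8 (up to 0.0693) and with a pseudocount of 0.1 (adjusted p = 0.562), and those of NPEPL1, MAP1LC3A and MYL9 in 6 of 8 each (up to 0.128, 0.0882 and 0.107). SOGA1 missed in 2 of 8 (up to 0.0537) and PTPN1 in 1 of 8 (0.0502). WFDC3, the neighbour of WFDC2 in the family of whey acidic proteins, which the table lists as another transcript type, differed likewise (-1.92 log2, adjusted p = 0.00839).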

How the results depend on the processing

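Among the 54 genes taken by the rule for named genes, no change turned its direction where it passed the test in either fit; the other members were not followed in this way. The medians over the members stayed below 0 in both lines: in DU145 between -0.346 and -0.284 with 1 library left out, -0.250 with median-of-ratios scaling and -0.279 with upper-quartile scaling, and in PC3 between -0.257 and -0.230, -0.186 and -0.189 with these scalings and -0.193 with a pseudocount of 5. The count of falls in DU145 was 3 to 30 with 1 library left out, 17 and 15 with these scalings, 53 when protein-coding rows alone were fitted and 2 with only the DU145 libraries, and 0 to 3 were called, 1 with a pseudocount of 0.1, 1 among members at the level in both lines and 5 by GENCODE 29 types; none rose in any. In PC3 24 to 51 fell with 1 library left out and 29 with only the PC3 libraries. 2 to 6 rose, with 3 without a filter, 11 and 8 with these scalings, 10 with protein-coding rows alone, 0 with only the PC3 libraries, 9 among members at 1 TPM and 3 among members at the level in both lines. 6 to 11 were called, 4 with a pseudocount of 5 and 5 among members at 20 TPM. Of differences of the changes, 3 to 11 were called with 1 library left out, 3 to 15 were higher and 4 to 17 lower, with a median of -0.102 to -0.032. 7 were called with a pseudocount of 0.1 or no filter, 5 with a pseudocount of 5 or members at 20 TPM (5 higher), 4 among members at the level in both lines, and 18 were higher with protein-coding rows alone. In the TRIB1 libraries 35 to 36 were called between the lines, 43 to 62 higher and 41 to 54 lower, 23 called with a pseudocount of 5 and 20 among members at the level in both lines, and the median was 0.071 to 0.141, 0.291 and 0.210 with these scalings. In controls the median was -0.018 to 0.005, 0.212 and 0.101 with these scalings, 0.033 with protein-coding rows alone and -0.052 among members at 1 or at 20 TPM. The members by GENCODE 29 type and at the level in both lines were chosen after seeing the data. With the replicate number as a block, 5 fell in DU145, 3 rose in PC3, and of differences 6 were called, 4 higher and 8 lower. The labels do not say whether same-numbered libraries were handled together. Their deviations correlated between groups at -0.042 to 0.014, which shows no shared shift but cannot settle the pairing. The cause of these moves was not tested. TPM gives no depth, so what depth limits could not be stated.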
